A study of Mus musculus with 11 samples.

Results

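Sod3, Gtsf1, Lpcat2, S1pr3, Plxdc2, Bdkrb1, H6pd and Htra4 are 8 genes that were chosen because their signal was low in E0771 tumors grown from cells with a hairpin against Pcx. They are 8 of the 22206 probe sets on the array, of which 19572 carry 1 gene symbol, and each of the 8 is read by 1 probe set. E0771 is a mammary carcinoma line of C57BL/6 mice. Cells were transduced with a scramble control shRNA (scram, n = 4 tumors) or with 1 of 2 lentiviral shRNAs against Pcx (shPC25, n = 3 tumors, and shPC28, n = 4 tumors). They were then grown in the mammary fat pad of C57BL6J mice that received no treatment. According to the study's methods the mice were adult females on the same diet, and all of the cells had been selected with puromycin. The titles of all 11 tumors carry LFD, which is not spelled out. Whether the tumors of a group came from more than 1 transduction is not given.

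The 8 genes belong to different systems, most of which act at the cell surface, outside the cell or in its membranes. Superoxide outside cells is turned into hydrogen peroxide by a secreted dismutase, and inflamed tissue makes lipid and peptide mediators such as platelet-activating factor, sphingosine-1-phosphate and kinins that act through receptors of the G protein-coupled family. NADPH in the endoplasmic reticulum comes from an enzyme of its own, apart from the pentose phosphate pathway of the cytosol. Whole tumors hold carcinoma cells together with fibroblasts, vessels and immune cells, and many of these mediators and receptors are used by host cells.

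The values are log2 signals, so a difference of 1 unit is a doubling. Any pair of the 11 arrays had an r of 0.987 to 0.994 over probe sets, and array medians ran from 5.89 to 6.08. Pcx, the targeted gene and the source of pyruvate carboxylase, had log2 signals of 3.41, 3.89, 4.48 and 4.13 in scram replicates 1 to 4. It had 3.19, 3.42 and 3.12 in the shPC25 tumors and 3.76, 2.90, 2.32 and 3.44 in the shPC28 tumors. All 7 hairpin tumors lay below the scram mean of 3.98 ± 0.45 (SD, n = 4), the groups overlapped, and the mean of both hairpin groups minus scram was -0.80 (SE 0.27) with a limma adjusted p of 0.388. In 10 of 11 tumors Pcx was under 4.30, the level below which 95% of 1091 olfactory receptor probe sets lay on average. That set is used here as a stand-in for background. Among epithelial markers, Krt8 was at 13.56 to 14.61, whereas Krt5 and Elf5 stayed under that level in all tumors. Krt14 ranged from 3.92 to 9.21 with a median of 8.17. The medians of Epcam, Krt18, Krt19 and Cdh1 were 4.89, 4.41, 3.96 and 5.76, so Krt8 was the one bright marker of the list.

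Sod3 and Gtsf1 were separated from scram by over 1 log2 unit in every hairpin tumor. Sod3 encodes the secreted superoxide dismutase, which is held in the matrix by heparan sulfate. Its log2 signals were 9.45, 8.0, 8.39 and 7.56 in scram replicates 1 to 4, 5.02, 5.80 and 5.73 in shPC25, and 6.45, 5.64, 6.02 and 6.16 in shPC28. The lowest scram tumor, replicate 4, was 1.11 units above the highest hairpin tumor, shPC28 replicate 1. The mean of both hairpin groups minus scram was -2.56 (SE 0.32), a signal lower by 5.89 times, with -2.83 (SE 0.39) in shPC25 and -2.28 (SE 0.36) in shPC28. Fewer cells that make a transcript and less transcript per cell cannot be told apart in whole-tumor RNA, here and below.

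Gtsf1 encodes a zinc finger protein known from germ cells, where it works with Piwi proteins in silencing transposons. The log2 signals of Gtsf1 were 7.29, 6.90, 7.76 and 7.75 in scram, 5.18, 5.24 and 3.98 in shPC25, and 4.28, 3.41, 3.27 and 5.08 in shPC28. Scram replicate 2 was the lowest of its group and still lay 1.66 units above the highest hairpin tumor, shPC25 replicate 2. The difference over both hairpins was -3.02 (SE 0.37), or 8.11 times lower, with -2.62 (SE 0.45) in shPC25 and -3.42 (SE 0.41) in shPC28. In 4 of the 7 hairpin tumors Gtsf1 was under the olfactory receptor level of 4.30.

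Over all probe sets, 156 (0.703%) had every hairpin tumor below every scram tumor, and 2 (0.00901%) did so by over 1 log2 unit. All 8 genes are among the 156, and the 2 are Sod3 and Gtsf1. The genes were picked from these same contrasts, so nothing is read from the 8 of 8. Their median difference was -1.71, beside 0.02 over all probe sets. Lpcat2, Gtsf1 and Sod3 were the 3 probe sets (0.0135%) past an adjusted p of 0.05 in limma for the mean of both hairpins minus scram, a count that ran from 0 to 22 under other settings. On either side of that limit stood Sod3, at -2.56, and Bdkrb1, at -1.84.

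**Figure D1:**
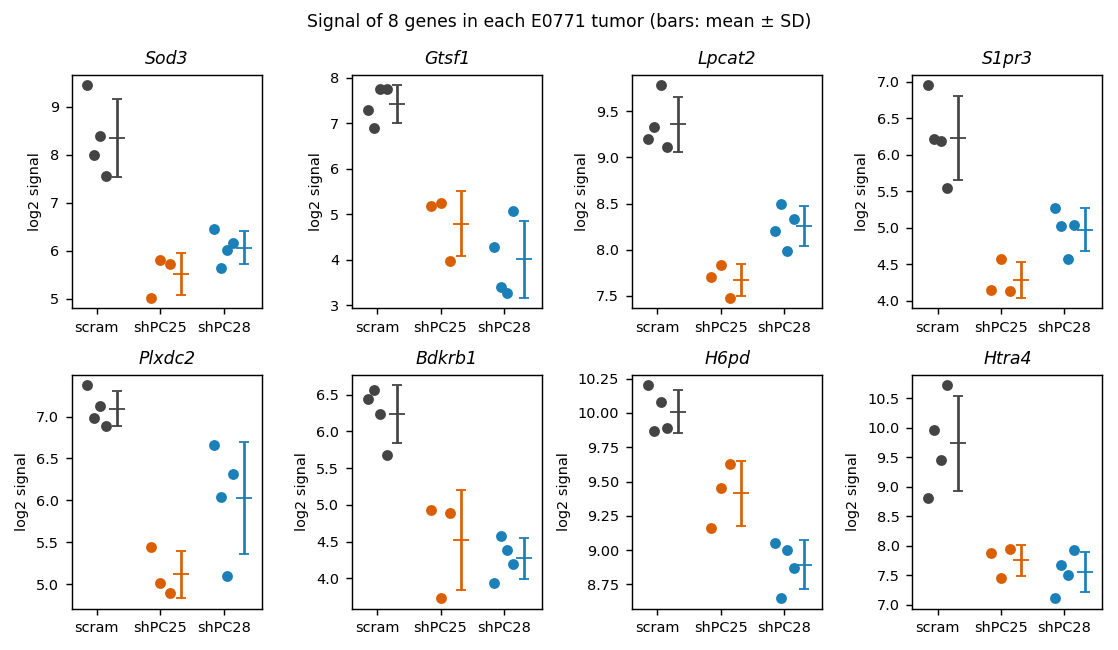
Log2 signal of the 8 genes in each tumor, 1 panel per gene, with scram (n = 4), shPC25 (n = 3) and shPC28 (n = 4) on the x axis. Points are tumors and bars are the group mean ± SD. In each panel the 4 scram points lie above all 7 hairpin points, with the widest gap for Gtsf1 (1.66) and the narrowest for Plxdc2 (0.23).

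Lpcat2 encodes an acyltransferase of lysophospholipids that can also make platelet-activating factor in inflammatory cells. Tumor by tumor, it had log2 signals of 9.20, 9.33, 9.78 and 9.11 in scram, 7.71, 7.83 and 7.48 in shPC25, and 8.20, 8.50, 7.99 and 8.33 in shPC28. The 3 groups did not overlap: scram was highest, shPC28 next and shPC25 lowest. The spread within groups was narrow, with an SD of 0.30, 0.18 and 0.22. Over both hairpins the difference was -1.39 (SE 0.16), or 2.62 times lower.

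The sequence upstream of the start site is shown for the 4 of 8 genes that had an entry in the RefSeq promoter table (mouse GRCm38.p6), so that the genes that were low together can be set side by side. Sod3, Plxdc2, Bdkrb1 and Htra4 are named only. The runs are the 250 bases before the annotated start, on the gene's own strand, at chr15:103430428-103430677 (minus) for Gtsf1, chr8:92855083-92855332 (plus) for Lpcat2, chr13:51408368-51408617 (plus) for S1pr3 and chr4:150003237-150003486 (minus) for H6pd. Capitals mark matches to the motifs described in the next paragraph that lie wholly in the run.
Gtsf1: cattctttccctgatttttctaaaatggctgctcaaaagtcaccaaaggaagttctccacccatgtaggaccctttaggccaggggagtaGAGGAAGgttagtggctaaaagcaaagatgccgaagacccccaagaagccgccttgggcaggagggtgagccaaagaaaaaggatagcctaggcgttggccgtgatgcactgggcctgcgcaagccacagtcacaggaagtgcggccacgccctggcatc
Lpcat2: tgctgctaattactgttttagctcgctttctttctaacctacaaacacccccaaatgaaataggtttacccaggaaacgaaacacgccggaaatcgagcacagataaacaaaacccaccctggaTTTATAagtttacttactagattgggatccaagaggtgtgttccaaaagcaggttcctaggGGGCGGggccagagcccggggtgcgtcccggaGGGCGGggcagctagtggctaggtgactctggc
S1pr3: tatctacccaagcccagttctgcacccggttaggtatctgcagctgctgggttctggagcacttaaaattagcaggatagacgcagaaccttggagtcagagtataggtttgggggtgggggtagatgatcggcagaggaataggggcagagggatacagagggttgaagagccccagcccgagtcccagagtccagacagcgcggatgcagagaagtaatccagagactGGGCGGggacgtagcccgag
H6pd: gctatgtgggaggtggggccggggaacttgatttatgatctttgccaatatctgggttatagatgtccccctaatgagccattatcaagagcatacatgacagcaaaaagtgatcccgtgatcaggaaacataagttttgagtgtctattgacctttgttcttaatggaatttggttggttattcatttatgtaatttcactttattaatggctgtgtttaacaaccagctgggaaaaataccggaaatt

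Matches were sought on both strands of 300 bases, which reach a short way past the start. The motifs were ACGTG (the core of hypoxia response elements), TTGCNNAA (C/EBP), TGANTCA (AP-1), GAGGAAG (PU.1), GGGCGG (the GC box), TATAAA (the TATA box) and CACGTG (the E box, which contains the first). Gtsf1 had 1 PU.1 match at -160. Lpcat2 had GC box matches at -65 and -33 and a TATA box match on the minus strand at -126. S1pr3 had a GC box match at -20 and an ACGTG at 7 past the start. H6pd had C/EBP matches at -2 and 15, both reaching past the printed run. No motif matched in more than 2 of the 4 sequences, and the one that matched in 2, the GC box, is in 35.7% of 32851 promoters of this length. PU.1 letters are in 13.6% of them, C/EBP letters in 10.8%, TATA box letters in 13.6% and ACGTG in 19.6%. By composition, Gtsf1, Lpcat2 and S1pr3 held 13, 15 and 14 CpG pairs, and H6pd held 3, beside a median of 7 over all promoters. A match describes letters and not a bound site.

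The receptors S1pr3 and Bdkrb1 were lower by 3.01 and 3.57 times over both hairpins. S1pr3 is a receptor for sphingosine-1-phosphate that couples to several G proteins. S1pr3 had log2 signals of 6.95, 6.21, 6.19 and 5.54 in scram, 4.15, 4.57 and 4.14 in shPC25, and 5.27, 5.02, 4.57 and 5.04 in shPC28. Scram replicate 4 and shPC28 replicate 1 came within 0.27 units of each other, and 2 shPC25 tumors were under the olfactory receptor level. The differences were -1.94 (SE 0.29) in shPC25 and -1.25 (SE 0.27) in shPC28.

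Bdkrb1 is the B1 bradykinin receptor, which responds to kinins that have lost their last arginine and is known to be induced in inflamed tissue. It had log2 signals of 6.44, 6.57, 6.24 and 5.68 in scram, 4.93, 3.73 and 4.89 in shPC25, and 3.93, 4.58, 4.39 and 4.19 in shPC28. All 4 shPC28 tumors lay inside the shPC25 range, and 3 of the 7 hairpin tumors were under the olfactory receptor level. The gap to scram was 0.75 units, between scram replicate 4 and shPC25 replicate 1. The differences were -1.72 (SE 0.31) in shPC25 and -1.96 (SE 0.29) in shPC28.

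Plxdc2 is a transmembrane protein with a plexin-like domain and a receptor for pigment epithelium-derived factor. Its log2 signals were 7.37, 6.98, 7.13 and 6.89 in scram, 5.44, 5.02 and 4.90 in shPC25, and 6.66, 6.04, 5.10 and 6.31 in shPC28. Of the 8 genes it had the narrowest gap, 0.23 units between scram replicate 4 and shPC28 replicate 1. Within shPC28 it ranged over 1.56 units, against 0.54 in shPC25 and 0.48 in scram. shPC28 replicate 3, at 5.10, lay inside the shPC25 range. Over both hairpins the difference was -1.52 (SE 0.26), or 2.87 times lower, with -1.97 (SE 0.31) in shPC25 and -1.06 (SE 0.29) in shPC28.

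H6pd is the hexose-6-phosphate dehydrogenase of the endoplasmic reticulum, where it supplies NADPH to 11-beta-hydroxysteroid dehydrogenase 1. H6pd had log2 signals of 10.20, 9.87, 10.08 and 9.89 in scram, 9.16, 9.45 and 9.63 in shPC25, and 9.05, 8.65, 9.0 and 8.87 in shPC28. The 3 groups did not overlap, and here shPC28 was the lowest and shPC25 lay between. Its difference over both hairpins was the smallest of the 8, at -0.86 (SE 0.14) or 1.81 times lower. SDs were also small, at 0.16, 0.24 and 0.18.

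Htra4 encodes a secreted serine protease of the HtrA family, known in humans from the placenta. Its log2 signals were 8.81, 9.97, 9.45 and 10.72 in scram, 7.87, 7.45 and 7.94 in shPC25, and 7.11, 7.67, 7.51 and 7.92 in shPC28. The scram tumors ranged over 1.91 units, and scram replicate 4, the lowest scram tumor for 5 of the 8 genes, was the highest for Htra4. The hairpin groups overlapped, and the lowest scram tumor lay 0.87 units above the highest hairpin tumor. The difference over both hairpins was -2.08 (SE 0.31), or 4.24 times lower, with -1.98 (SE 0.37) in shPC25 and -2.18 (SE 0.35) in shPC28.

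Averaged over the 8 genes, the log2 signal was 8.21, 7.98, 8.13 and 7.89 in scram replicates 1 to 4. It was 6.18, 6.14 and 6.09 in shPC25 and 6.37, 6.19, 5.98 and 6.49 in shPC28. No hairpin tumor held the highest value of any of the 8 genes, and no scram tumor the lowest, which follows from how the genes were chosen and their lack of overlap. The tumors with most group minima were scram replicate 4 (5 of 8 genes), shPC25 replicate 3 (4 of 8) and shPC28 replicate 3 (4 of 8).

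The hairpins were compared with each other without the scram tumors. In limma 0 of 22206 probe sets (0.0%) passed an adjusted p of 0.05 for shPC28 minus shPC25, and 1023 (4.61%) had an unadjusted p under 0.05. Of the 8 genes, 4 were higher in shPC28 and 4 lower, all with an adjusted p of 0.993. At an unadjusted p under 0.05 stood Lpcat2, S1pr3 and Plxdc2, higher in shPC28, and H6pd, lower in shPC28. Lpcat2, S1pr3 and Plxdc2 ranked 1, 3 and 5 by p in shPC25 minus scram but 9, 48 and 185 in shPC28 minus scram, whereas H6pd ranked 2 in shPC28 and 243 in shPC25. A gene picked from the contrast of 1 hairpin is prone to differ towards that hairpin, so nothing is read from these 4.

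Plxdc2 had the largest difference between hairpins among the 8, at 0.91 (95% interval 0.22 to 1.59, exact permutation p = 0.114). The intervals and p-values given here make no allowance for how the genes were picked. For Lpcat2 it was 0.58 (0.16 to 1.00) and for H6pd -0.52 (-0.89 to -0.16), each with an exact permutation p of 0.0571, the smallest that 35 splits allow. Those were the 2 of 8 genes whose hairpin groups did not overlap, as was the case for 4.99% of all probe sets. For S1pr3 the difference was 0.69 (0.05 to 1.32, exact permutation p = 0.114). The intervals of the other 4 genes included 0. They ran from -0.30 to 1.40 for Sod3, -1.77 to 0.19 for Gtsf1, -0.93 to 0.44 for Bdkrb1 and -1.02 to 0.62 for Htra4, so the intervals of Sod3, Gtsf1 and Htra4 include differences of over 1 unit.

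**Figure D2:**
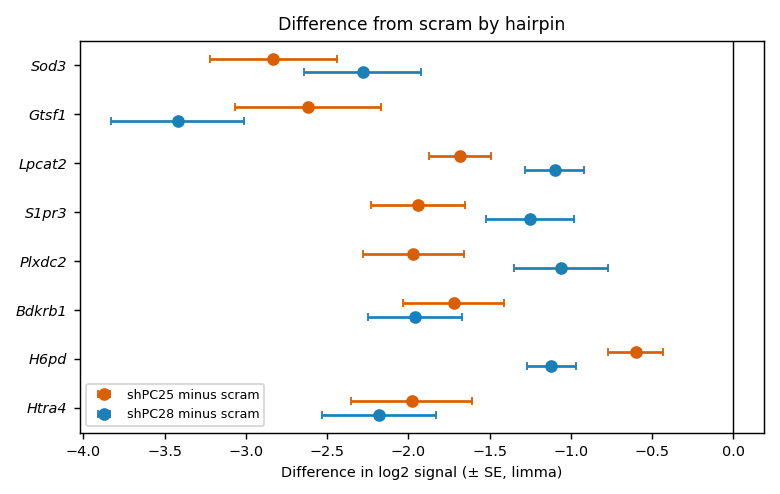
Difference in log2 signal from scram for each of the 8 genes (y axis) in shPC25 and shPC28, with limma standard errors as bars. All 16 points lie below 0. They share the 4 scram tumors, and the hairpins change order between Lpcat2 (-1.68 and -1.10) and H6pd (-0.60 and -1.12).

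How the genes went with each other was examined after the group means had been taken out, so that the group difference that chose them could not drive a correlation. Over the 28 pairs and 11 tumors the Pearson r of these deviations ran from -0.85 to 0.82 with a median of -0.04. It was over 0.5 for 4 pairs and under -0.5 for 4 pairs. Each r was set beside the r of the pair's first gene with all probe sets. The share at or above it was 0.365% for Sod3 and S1pr3 and 0.576% for Sod3 and H6pd. It was 5.21% for S1pr3 and Plxdc2 and 5.15% for Gtsf1 and Plxdc2. For the 4 negative pairs it was 99.8% (Sod3 and Htra4), 99.7% (S1pr3 and Htra4), 93.8% (H6pd and Htra4) and 93.7% (Gtsf1 and Bdkrb1). No pair passed an adjusted p of 0.05 by exact permutation within groups, and 5 of the 28 had an unadjusted p under 0.05.

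Sod3 stood in 3 of these 5 pairs. With H6pd its r was 0.80 and its rho 0.79 (exact permutation p = 0.00347 and 0.0148, adjusted p = 0.0972 and 0.350), and without scram replicates 1 and 4, the tumors farthest from the median of Sod3, r was 0.89. Over the 7 hairpin tumors r was 0.88. With S1pr3 its r was 0.82 and rho 0.73 (exact permutation p = 0.0286 and 0.0301, adjusted p = 0.160 and 0.350), but without those 2 scram tumors r was 0.42. With Htra4 it ran the other way, at r = -0.85 and rho = -0.68 (exact permutation p = 0.0159 and 0.0501, adjusted p = 0.160 and 0.350). That relation rests in part on the same tumors, since r was -0.56 without them. Scram replicate 1 had the highest Sod3 (9.45) and the lowest Htra4 (8.81) of its group, and scram replicate 4 had the lowest Sod3 (7.56) and the highest Htra4 (10.72).

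S1pr3 and Htra4 also ran opposite to each other, with r = -0.85 and rho = -0.60 (exact permutation p = 0.0275 and 0.0966, adjusted p = 0.160 and 0.529), and r was -0.43 without scram replicates 1 and 4. S1pr3 and Plxdc2 had r = 0.59 and rho = 0.65 (exact permutation p = 0.0200 and 0.0440, adjusted p = 0.160 and 0.350), and r was 0.71 without the same 2 tumors. Gtsf1 and Plxdc2 had r = 0.56 and rho = 0.58 (exact permutation p = 0.197 and 0.151, adjusted p = 0.690 and 0.529), and r was 0.22 without shPC25 replicate 3 and shPC28 replicate 3. For both Gtsf1 with Bdkrb1 and H6pd with Htra4 r was -0.55, with adjusted p-values by exact permutation of 0.448 and 0.336. Lpcat2 had no r beyond 0.35 in size with any of the other 7 genes.

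**Figure D3:**
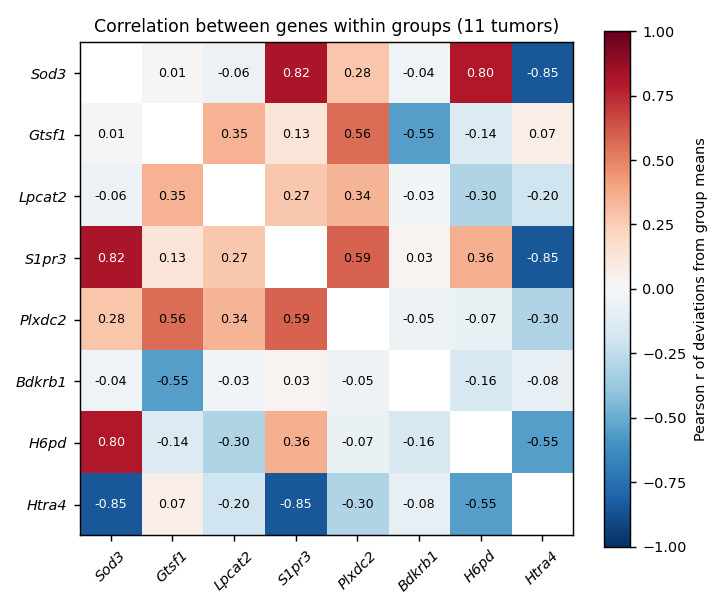
Pearson r between the 8 genes over 11 tumors, computed on deviations from the group means. Red is positive and blue negative, and the number in each cell is r. Sod3, S1pr3 and Htra4 form the cells of largest size (0.82, -0.85 and -0.85), and Lpcat2 and Bdkrb1 have pale rows apart from Gtsf1 and Bdkrb1 (-0.55).

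**Figure D4:**
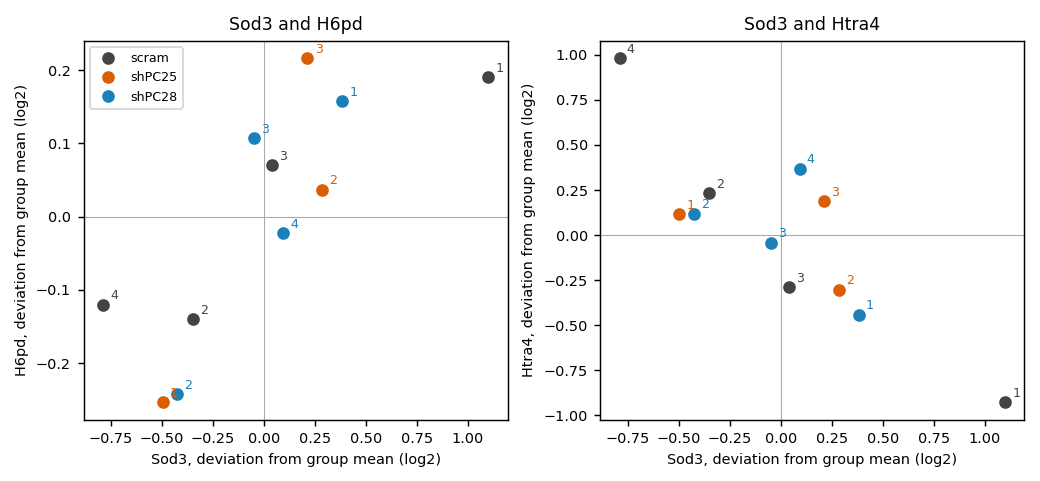
Deviation of Sod3 from its group mean (x axis, log2) against that of H6pd (left) and Htra4 (right), with tumors coloured by group and numbered by replicate. Scram replicates 1 and 4 lie at the far ends of Sod3 in both panels. Without them r was 0.89 on the left and -0.56 on the right.

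Against Pcx itself, the same within-group correlation was computed for each of the 8 genes. The largest in size was that of Gtsf1, with r = 0.67 and rho = 0.70 (exact permutation p = 0.0599 and 0.0203, adjusted over the 8 genes 0.250 and 0.162), and r was 0.58 without shPC25 replicate 3 and shPC28 replicate 3. The other 7 ran from -0.49 for Bdkrb1 to 0.61 for Plxdc2, and none of the 8 passed after adjustment. These values depended on which tumors were used. For Plxdc2 r was -0.18 without shPC28 replicates 1 and 3, and for S1pr3 it went from 0.04 to 0.81 without scram replicates 1 and 4. Over the 7 hairpin tumors r was 0.90 for Plxdc2, 0.87 for S1pr3 and 0.71 for Gtsf1 (adjusted p by exact permutation of 0.111, 0.0556 and 0.264). For S1pr3 the unadjusted p was 0.00694, the smallest that 144 arrangements allow, so a single gene could not pass there. Pcx was near background in most tumors.

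By the same measure over 11 tumors, the genes whose pattern was most like each of the 8 were taken from all probe sets with 1 symbol, as a description. They were picked as the largest of all r, so nothing is read from the size of r. Each of the 8 had from 4 (Lpcat2 and H6pd) to 35 (Bdkrb1) probe sets at an r of at least 0.9. For Sod3 the closest genes were Mep1a (r = 0.957), Ifitm1 (0.937) and Fgf7 (0.933). The unadjusted signals include the group difference that Sod3 was chosen for, and over these r was 0.32, 0.93 and 0.95. Over the 7 hairpin tumors, with group means taken out, r was 0.98, 0.92 and 0.75 in the same order. Mep1a had a mean signal of 2.73, under the olfactory receptor level. For S1pr3 they were Folr2 (0.964), a folate receptor of tissue macrophages, Il13ra1 (0.933), a chain of the interleukin-13 receptor, and Csgalnact1 (0.932), an enzyme of chondroitin sulfate synthesis. For Gtsf1 they were Naip5 (0.927), an inflammasome sensor of flagellin, Qpct (0.916, mean signal 3.73, also under that level) and Fbxo21 (0.913).

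Plxdc2 was closest to Zfp119b (0.940), Enc1 (0.918) and Pigx (0.903). Bdkrb1 was closest to Rab14 (0.967), Zscan22 (0.950) and Clic4 (0.950), and Htra4 to Mfap1b (0.985), A2ml1 (0.960) and Tm9sf2 (0.950). Of these, A2ml1 had a mean signal of 2.77, under the olfactory receptor level. For Lpcat2 (Atp4b, Saa4 and Kif6) and H6pd (Sprn, Pnliprp2 and Cblif) all 3 had mean signals of 2.27 to 3.62, under the olfactory receptor level. Over the unadjusted signals, which include the group differences, r was 0.04 between Htra4 and Mfap1b and 0.02 between Bdkrb1 and Rab14, beside 0.89 between Gtsf1 and Naip5 and 0.83 between S1pr3 and Folr2.

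Marker lists of host cells moved with the groups as well. Of 11 fibroblast markers measured, 11 were lower in the hairpin tumors, with a median difference of -1.93 and list means of 8.62 to 10.82 in scram and 7.23 to 8.77 in hairpin tumors. Of 9 neutrophil markers, 9 were lower, with a median of -1.73 and list means of 8.83 to 11.21 against 7.52 to 9.26. Of 10 macrophage and monocyte markers, 8 were lower, with a median of -0.60 and list means of 11.51 to 12 against 10.93 to 11.84. The hairpins differed here: list means were 10.93 to 11.14 in shPC25, below all scram tumors, and 11.34 to 11.84 in shPC28, which overlapped scram. None of these markers passed an adjusted p of 0.05 in limma. At an unadjusted p under 0.05, 9 of 11 fibroblast and 8 of 9 neutrophil markers were lower, against 4.76% of all probe sets. Of the macrophage and monocyte markers, 6 of 10 had such a p in either direction, against 2022 of 22206 probe sets.

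The part of these cells in the lower signal of the 8 genes was not tested. In scram replicate 4 the fibroblast mean was 8.62, below 2 of the 7 hairpin tumors, and the neutrophil mean was 8.83, below 1 of them. The mean of the 8 genes, which were chosen for being higher in scram, was 7.89 in that tumor. Medians of the differences over the endothelial, T cell and proliferation markers were 0.27, 0.32 and 0.06, and all lists other than those of fibroblasts, neutrophils and macrophages had medians between -0.40 and 0.38. The lowest of these was skeletal muscle, with 8 of 8 markers lower, 2 of them at an unadjusted p under 0.05, and list means of 4.89 to 5.6 in scram against 4.59 to 4.96 in hairpin tumors, so the groups overlapped.

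**Figure D5:**
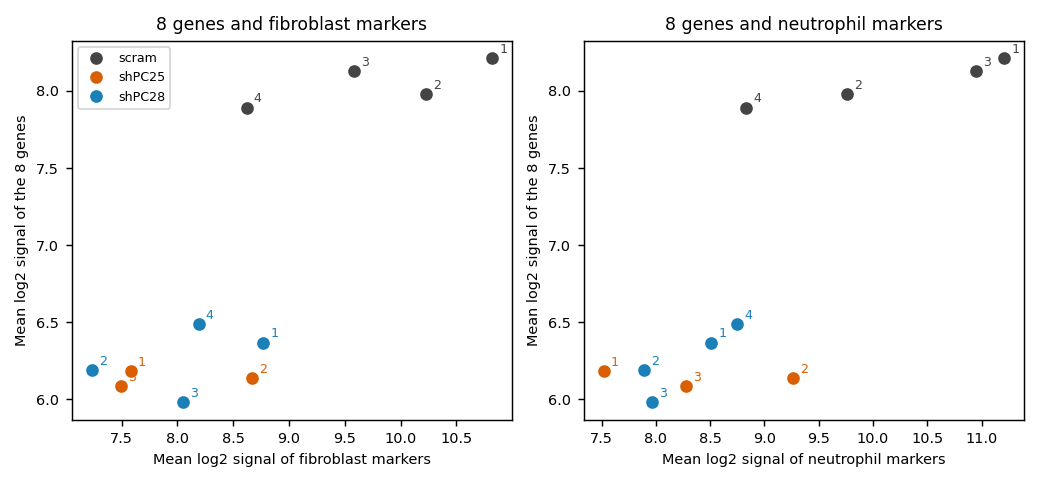
Mean log2 signal of the 8 genes (y axis) against that of the fibroblast markers (left) and the neutrophil markers (right) in each tumor, coloured by group and numbered by replicate. Along the x axis scram replicate 4 lies at 8.62 and 8.83, within the range of the hairpin tumors. The 8 genes were chosen for being higher in scram, so the order of the groups on the y axis follows from that choice.

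Within groups, each of the 8 genes was also set against 15 marker lists, giving 120 pairs. Sod3 had r = 0.86 and rho = 0.88 with the neutrophil markers (exact permutation p = 0.0107 and 0.00174, adjusted p = 0.263 and 0.104), and r was 0.82 without scram replicates 1 and 4. It had r = 0.79 and rho = 0.77 with the fibroblast markers (exact permutation p = 0.0223 and 0.0240, adjusted p = 0.269 and 0.320), and r was 0.60 without those tumors. S1pr3 had r = 0.80 and rho = 0.78 with the fibroblast markers (exact permutation p = 0.0142 and 0.0145, adjusted p = 0.263 and 0.312), which was 0.55 without them. S1pr3 had like values with the neutrophil markers (r = 0.80, rho = 0.70, exact permutation p = 0.0153 and 0.0365, adjusted p = 0.263 and 0.396) and the mast cell markers (r = 0.86, rho = 0.73, exact permutation p = 0.0133 and 0.0284, adjusted p = 0.263 and 0.340), and r was 0.57 and 0.51 without scram replicates 1 and 4. Htra4 had negative values with all 3 lists. With the neutrophil markers r was -0.79 and rho -0.67 (exact permutation p = 0.0269 and 0.0833, adjusted p = 0.269 and 0.539), and r was -0.50 without scram replicates 1 and 4. With the fibroblast markers r was -0.78 and rho -0.65 (exact permutation p = 0.0255 and 0.0692, adjusted p = 0.269 and 0.539), and r was -0.45 without them. With the mast cell markers r was -0.81 and rho -0.67 (exact permutation p = 0.0530 and 0.103, adjusted p = 0.355 and 0.539), and r was -0.30 without them.

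Plxdc2 with the mast cell markers was the 1 pair of 120 that passed, with r = 0.66 and rho = 0.85 (exact permutation p = 0.000289 for both, the smallest that 3456 arrangements allow, adjusted p = 0.0347), while 15 pairs had an unadjusted p under 0.05. With the replicate number as a block the call was lost, at r = 0.57 and an adjusted p of 0.711 by exact permutation. r was 0.78 without shPC28 replicates 1 and 3, and 0.99 over the 7 hairpin tumors. Beside it, the mast cell list means were 6.50, 5.04, 5.73 and 4.57 in scram, 5.39, 5.06 and 4.99 in shPC25, and 5.70, 5.42, 4.90 and 5.58 in shPC28. Within each of the 3 groups the tumors had the same order for Plxdc2 and for this list. The list means of both hairpin groups lay inside the scram range, and 4 of 8 markers were lower in hairpin tumors. Fcer1a and Ms4a2, chains of the mast cell receptor for immunoglobulin E, were under the olfactory receptor level in all 11 tumors, at no more than 3.89 and 3.17. Cpa3, a mast cell protease, ranged from 3.8 to 7.96, Tpsb2 from 3.69 to 7.33, Mcpt4 from 3.66 to 6.68 and Cma1 from 3.43 to 4.42. The brightest marker of the list was Hdc, at 8.27 to 11.75, and Kit was at 5.65 to 7.89. The part of mast cells in the level of Plxdc2 was not tested. Plxdc2 also had r = 0.57 and rho = 0.74 with the endothelial markers (exact permutation p = 0.00579 and 0.0159, adjusted p = 0.263 and 0.312). Also at an unadjusted p under 0.05 were Sod3, H6pd and Htra4 with the pericyte and smooth muscle markers (r = 0.55, 0.68 and -0.48). So were Lpcat2 with the NK cell markers (0.70) and Htra4 with the epithelial (0.52) and hypoxia response (-0.72) markers.

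Genes that work with the 8 were counted from lists of relatives and partners, of which 81 of 87 were measured. None passed an adjusted p of 0.05 in limma in any of the 4 contrasts, and 2 of them, Cpn1 and Gpx3, did so in the mean of both hairpins minus scram with a trended and robust prior. For the mean of both hairpins minus scram, 7 were lower and 2 higher at an unadjusted p under 0.05, against 4.76% and 4.34% of all probe sets. For shPC28 minus shPC25 it was 0 lower and 3 higher, against 2.46% and 2.14%.

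Among the kinin genes, Cpn1, the subunit of carboxypeptidase N that removes the last arginine of kinins, had the largest difference. It was at 5.40, 6.54, 7.22 and 7.37 in scram, 4.35, 3.77 and 5.07 in shPC25, and 4.19, 4.40, 4.65 and 4.51 in shPC28. Every hairpin tumor lay below every scram tumor, at -2.22 (SE 0.36, adjusted p = 0.0692 in limma). Bdkrb2, the B2 receptor, was at 5.42 to 7.41 in scram and 5.26 to 7.39 in the hairpin tumors, with a difference of -0.25 (SE 0.45, adjusted p = 0.913). Mme, a peptidase that also cleaves kinins, was at 0.58 (SE 0.19, adjusted p = 0.378), from signals under the olfactory receptor level in all tumors.

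Of the peroxide-removing enzymes, which act on the product of Sod3, the secreted peroxidase Gpx3 had the smallest p. It had log2 signals of 10.16, 11.16, 9.99 and 10.44 in scram, 8.09, 8.96 and 8.68 in shPC25, and 9.18, 8.99, 9.06 and 9.73 in shPC28, with no overlap. The difference was -1.53 (SE 0.25, adjusted p = 0.0692 in limma), and the median over 10 such enzymes was -0.11. Sod2, the mitochondrial superoxide dismutase, was at -0.50 (SE 0.18, adjusted p = 0.439), and the median of the dismutase and copper genes was -0.15.

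Hsd11b1, which uses the NADPH that H6pd makes, was at 8.43, 10.34, 8.07 and 6.95 in scram, 6.57, 6.67 and 5.20 in shPC25, and 6.52, 5.87, 6.58 and 7.01 in shPC28. Scram replicate 4 lay below shPC28 replicate 4, so the groups overlapped. The difference was -2.13 (SE 0.54, adjusted p = 0.226 in limma). In the same list, Pgls of the cytosolic pentose phosphate pathway was at 0.76 (SE 0.22, adjusted p = 0.294).

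In the lipid mediator lists, Plpp3, a phosphatase that breaks down sphingosine-1-phosphate and lysophosphatidate outside cells, was at -1.10 (SE 0.26, adjusted p = 0.202 in limma). Its scram signals ran from 6.71 to 7.96 and its hairpin signals from 5.59 to 6.59. Pla2g4a, the phospholipase that releases the precursor of platelet-activating factor, was at -0.51 (SE 0.20, adjusted p = 0.481). Medians over the sphingosine-1-phosphate and platelet-activating factor lists were 0.01 and -0.06. The remaining lists had medians of -0.04 (piRNA pathway, with Dnmt3l at -0.55, SE 0.24, adjusted p = 0.542) and 0.10 (HtrA proteases, with Htra3 at 0.25, SE 0.27, adjusted p = 0.841). Plxdc1, the relative of Plxdc2, was at 0.05 (SE 0.23, adjusted p = 0.970) and Serpinf1, which encodes pigment epithelium-derived factor, at -0.06 (SE 0.46, adjusted p = 0.984).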

How the data were processed

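Total RNA of 11 whole tumors was labelled with a whole transcript kit and hybridized to mouse Clariom S arrays, and the authors processed them in Transcriptome Analysis Console. What was deposited is a log2 signal for each probe set in each tumor, normalized by the authors between arrays. How probes were summarized, corrected for background or filtered is not given in the sources used here, and the labels name no batch. Dim signals can be compressed towards background, which would understate differences of dim genes. Groups and replicate numbers came from the labels, and symbols from the platform annotation (19572 of 22206 probe sets with 1 symbol, 2634 with none).

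The values were used as deposited. In limma 3.58.1 (R 4.3.3), lmFit and eBayes estimated the 3 group means from all tumors, and tests were two-sided, with Benjamini-Hochberg adjustment over all probe sets and a threshold of 0.05. The fit was tested on simulated data. Differences from scram are descriptions for the 8 genes, which were chosen for them. Correlations used deviations from the group means, with exact two-sided permutation within groups in Python 3.11.15 and numpy 2.4.6. The 8 genes, the lists of related genes and the marker lists were chosen with earlier results of these data known. Named were the 8 genes, Pcx, the related gene of smallest p in each list (with Bdkrb2, Serpinf1, Mme and Pgls added after their values were seen), and the 3 probe sets most correlated with each of the 8 (no Gm or Rik symbol). Other settings tried were rank correlation, correlation in the hairpin tumors only, median centring, quantile normalization, omission of dim probe sets or of single tumors, array weights, a trended and robust prior, fitting the compared groups alone, a block for the replicate number, and the methods' t-test. The number of arrays limits the precision. No label says that the tumors of a group came from separate experiments, so p-values measure the spread between these tumors.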

Additional observations from a re-analysis of the deposited data

How the results depend on the processing

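For each of the 8 genes, the difference from scram stayed negative under each alternative in which it could be computed. All 8 stayed below scram without overlap after quantile normalization and after median centring. Leaving out 1 tumor cannot make groups overlap that did not overlap before, or turn the sign of their difference, so it is no check on either. After median centring the median change over all probe sets was 0.114, 0.141 and 0.0788 for the mean of both hairpins, shPC25 and shPC28. Leaving out dim probe sets removed Gtsf1, S1pr3 and Bdkrb1 and so moved the median over the genes for shPC28 minus scram from -1.60 to -1.12. Leaving out 1 tumor gave medians from -1.98 to -1.81 (shPC25), -1.67 to -1.52 (shPC28) and -1.79 to -1.61 (both). The count of 3 probe sets past the threshold for both hairpins minus scram was 0 after quantile normalization, 0 with the methods' t-test, 8 with array weights and 22 with a trended and robust prior. It ran from 0 to 8 when 1 tumor was left out, with 0 after leaving out replicate 1 or 3 of shPC25, or replicate 2 or 3 of shPC28, 1 without scram replicate 2 or shPC28 replicate 4, and 5 to 8 without scram replicate 1 or 4, shPC25 replicate 2 or shPC28 replicate 1. The cause was not tested. Over all probe sets, same-numbered tumors of different groups deviated together at r of -0.18 to 0.14. That shows no strong pairing by number, but it cannot exclude a weaker one or one that acts on some genes only. With the replicate number as a block the count was 0, and the block changed no call of the 8 genes between hairpins.

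Of the related genes, 2 (Gpx3 and Cpn1) passed with a trended and robust prior in the mean of both hairpins minus scram, and from 0 to 1 without 1 tumor (Cpn1 without scram replicate 1). None of the 8 genes passed for shPC28 minus shPC25 under any alternative (adjusted p from 0.705 to 1.0). Among the pairs, 0 to 1 passed when 1 tumor was left out, namely S1pr3 and Plxdc2 without shPC25 replicate 1 or 2 (adjusted p = 0.0486). Plxdc2 with the mast cell markers did not pass, leaving 0 of 120 pairs, with the replicate block (r = 0.57, adjusted p = 0.711), in the 7 hairpin tumors, without the 2 tumors farthest from the median, or without any 1 tumor (from 0 to 0). The smallest adjusted p that a single pair can reach is 0.104 or 0.139 with 1 tumor fewer, 0.417 without shPC28 replicates 1 and 3, and 0.833 in the 7 hairpin tumors, so a single pair could not pass there. r ran from 0.57 to 0.99. Averaging probe sets of the same gene was not run, because among the listed genes it would change only Pld6. For the mean of both hairpins, a fit of the compared groups only is the main fit. Dim signals limit Gtsf1, S1pr3, Bdkrb1, Pcx and Cpn1.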
